A study of Rattus norvegicus with 20 samples.

Results

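Apolipoproteins and the lipid transfer protein that loads them were followed in rat liver through 10 genes: Apoa1, Apoa2, Apoa4, Apoa5, Apob, Apoc1, Apoc3, Apoe, Apom and Mttp. The members were all probe sets (groups of short probes read out as 1 value) whose annotated gene symbol is one of these names, which gave 12 probe sets for 10 genes, out of 31099 probe sets and 14217 genes on the array. The samples were livers of male Sprague-Dawley rats that arrived at 4 weeks of age, were acclimatised for 7 d, were housed singly, and were then fed for 15 d a diet without lignan or with 0.2% sesamin, episesamin or sesamolin. Each diet had 7 rats, of which 5 were taken for arrays after the rats of highest and lowest body weight were left out, and each rat's RNA was labelled and measured on its own Affymetrix array, so n = 5 rats per diet. All rats were killed by bleeding under ether. Sesamin and episesamin are sesame lignans that are epimers of each other, and sesamolin differs from them by an ether oxygen inserted where 1 of the aryl groups joins the bicyclic core. The comparisons ask how each lignan, and the lignans relative to one another at equal dose and time, stand in the hepatic levels of these transcripts.

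The liver packs triglyceride onto apolipoprotein B (Apob) with the microsomal triglyceride transfer protein (Mttp) and secretes the product as very-low-density lipoprotein (VLDL). Apolipoproteins A-I and A-II (Apoa1, Apoa2) build high-density lipoprotein (HDL), which also carries apolipoprotein M (Apom), the carrier of sphingosine-1-phosphate. The smaller exchangeable proteins move between particles: Apoc3 slows triglyceride clearance, Apoa5 promotes it, Apoe is the ligand for hepatic receptors, and Apoa4 is a lipid-binding protein made in the intestine and, in rodents, also in the liver.

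Genome position groups these genes. In the order of protein-coding RefSeq genes of the rat assembly GRCr8, Apoa1, Apoc3, Apoa4 and Apoa5 follow one another on chromosome 8. No other protein-coding gene lies between them, and Apoc1 and Apoe are neighbours in that order on chromosome 1. RefSeq promoter windows were matched for 5 of the 10 members (Apoa4, Apoa5, Apoc1, Apoe and Apom). The 250 bases before an annotated start of Apoa4, Apoa5 and Apom are printed because Apoa4 and Apom are the matched members that passed the tests below and Apoa5 is the neighbour of Apoa4. They are RefSeq sequences of GRCr8, plus strand, at chr8:55435529-55435778 for Apoa4, chr8:55457621-55457870 for Apoa5 and chr20:3695368-3695617 for Apom, written 5′ to 3′ with motif matches in capitals.
Apoa4: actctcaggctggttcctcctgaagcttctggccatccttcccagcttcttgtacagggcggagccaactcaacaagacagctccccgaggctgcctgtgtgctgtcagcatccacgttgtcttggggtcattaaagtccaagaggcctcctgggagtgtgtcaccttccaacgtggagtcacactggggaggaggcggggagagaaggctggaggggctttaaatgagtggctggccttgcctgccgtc
Apoa5: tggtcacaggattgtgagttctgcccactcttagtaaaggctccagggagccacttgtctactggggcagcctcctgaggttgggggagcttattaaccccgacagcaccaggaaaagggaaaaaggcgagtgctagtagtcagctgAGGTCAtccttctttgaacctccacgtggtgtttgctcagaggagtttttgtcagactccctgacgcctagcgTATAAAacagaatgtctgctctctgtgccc
Apom: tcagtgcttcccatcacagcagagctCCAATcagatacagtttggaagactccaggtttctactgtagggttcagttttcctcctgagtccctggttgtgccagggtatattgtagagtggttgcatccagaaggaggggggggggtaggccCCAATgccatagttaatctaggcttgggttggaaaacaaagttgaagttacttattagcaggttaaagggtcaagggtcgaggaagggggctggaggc
The capitals mark AGGTCA, the core site of many nuclear receptors, at -103 and TATAAA at -30 from the start in Apoa5, and CCAAT at -224 and -98 in Apom. RefSeq has 2 windows for Apoa5, and these positions count from the start of the one printed; in the other, chr8:55457775-55458024, the same TATAAA lies at -184 and AGGTCA is not included. Each of the 7 motifs below was searched on both strands of 33469 windows of 250 bases. AGGTCA was present in 14.1% of all windows, and this site repeated in the same direction after 1 base, which contains it, in 0.0508%. The sequence TGACCTTTG was present in 0.376%, its variant TGAACTTTG in 0.281%, the cyclic AMP element TGACGTCA in 1.59%, TATAAA in 12.9% and CCAAT in 34%. None of these letters occurs in the Apoa4 window, and a match or its absence here describes the sequence only.

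Levels below are quantile-normalized intensities on a linear scale, and changes are differences of log2 intensity ± SE from 1 limma fit to all 20 arrays, with Benjamini-Hochberg adjusted p-values (11576 genes tested). A gene is said to rise or fall where the adjusted p is below 0.05. All 10 members exceeded the filter on low values with at least 1 probe set on all 20 arrays. Array brightness (mean raw intensity) ranged from 159 to 271, and 6 arrays were below 200 (1 lignan-free, 1 sesamin, 2 episesamin and 2 sesamolin). Of 12 hepatocyte markers listed, 11 were on the array and all of these passed the filter. With 5 rats per diet, the number of arrays limits precision.

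Episesamin and sesamolin each lowered 3 of the 10 members, no member rose with any lignan, and no member passed the test with sesamin. Episesamin lowered Apoa4, Apoa2 and Apom, and sesamolin lowered Apoa4, Apom and Apob. The Apob difference was -0.30 with both of these lignans, with a limma adjusted p of 0.0519 for episesamin and 0.0498 for sesamolin. Apob therefore does not set these 2 diets apart. The 3 calls with episesamin held in all alternative fits. Those with sesamolin were less stable: the Apob call was lost in 10 of 17 other settings and in 18 of the 20 fits without 1 array. Only Apom was left with sesamolin when the other 2 lignans were left out of the model and without the 4 arrays numbered 1. The same held without sesamolin replicate 1 or 3. The background of genes called lower over the whole array was 2.21% with episesamin and 2.95% with sesamolin, and the called higher share was 2.91% and 3.28%. Sesamin called 0.432% of all genes in either direction. The median log2 difference of the members from the lignan-free diet was -0.03 with sesamin, -0.22 with episesamin and -0.14 with sesamolin, against medians over all genes between -0.02 and -0.01. These 3 comparisons share the same 5 lignan-free arrays. At an unadjusted p below 0.05, 1 member (Apom) was counted with sesamin, where 7.46% of all genes were, and 5 with each of episesamin and sesamolin, where 19.7% and 20.3% of all genes were.

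Markers of other liver cells moved with the diets. Of 11 Kupffer cell and macrophage markers, 0, 3 and 7 fell with sesamin, episesamin and sesamolin, and their summed intensity was 8076 to 9215 in lignan-free rats, 5831 to 9222 with sesamin, 5851 to 7104 with episesamin and 4736 to 6594 with sesamolin. Of 13 stellate cell and endothelial markers, 2 fell with episesamin and 2 with sesamolin, with summed intensities of 7259 to 9757 in lignan-free rats, 6601 to 7399, 6382 to 7067 and 5625 to 6750. Fewer cells of a type and less RNA per cell cannot be told apart in bulk tissue, and the part of these cells in the members' differences was not tested. The 11 hepatocyte markers summed to 98850 to 103292 in lignan-free rats and 96912 to 102268 over the lignan rats, and 1 of them fell, with sesamolin. Very bright probe sets such as those of Alb and Serpina1 carry much of this sum. Quantile normalization gives the top ranks of every array the same values, so the narrow range was in part fixed by the processing. Intestinal epithelium also makes Apoa4. Of its 9 markers on the array, 5 (Cdh17, Fabp2, Cdx2, Muc2 and Alpi) passed the filter, and none of these was called. The other 4 (Vil1, Lgals4, Cdx1 and Slc5a1) did not pass the filter. The 9 markers summed to 356 to 623 in lignan-free rats, 394 to 1000 with sesamin, 451 to 601 with episesamin and 204 to 646 with sesamolin. The 4 red blood cell markers gave no call.

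**Figure D1:**
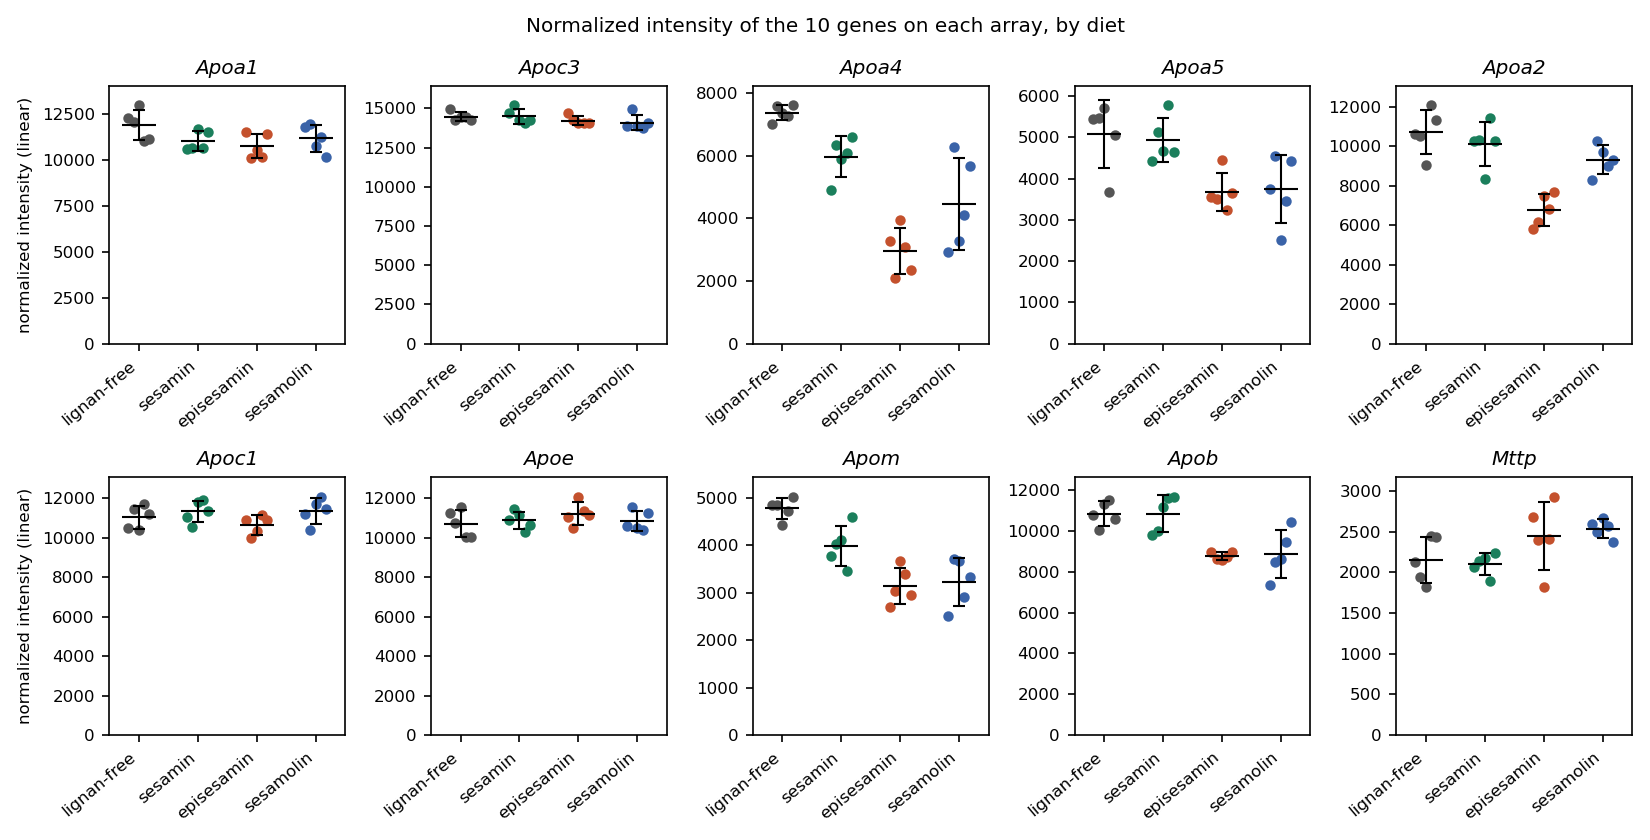
Normalized intensity (linear scale, from 0) of the 10 genes in each rat, with 1 point per array and 5 arrays per diet; the long bar is the mean and the short bars are 1 SD. Apoa4 runs from a lignan-free mean of 7383 to an episesamin mean of 2958, while the 4 diet means of Apoc3 lie between 14096 and 14489. Levels of different genes are read by different probes and are not comparable.

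Apoa4 showed the widest range over the diets. The lignan-free rats had Apoa4 intensities of 7029, 7597, 7369, 7292 and 7627, a mean of 7383 ± 245 (SD, n = 5). The episesamin rats had 3290, 2092, 3957, 3102 and 2350, a mean of 2958 ± 749 (SD, n = 5). Every episesamin rat was thus below every lignan-free rat, and also below every sesamin rat. The sesamin rats had 4911, 6360, 5889, 6099 and 6606, a mean of 5973 ± 652 (SD, n = 5), all below the lowest lignan-free rat. The sesamolin rats had 2937, 6272, 3274, 4115 and 5679, a mean of 4455 ± 1467 (SD, n = 5). The sesamolin rats were also below all lignan-free rats but were widely spread, and the 2 highest of them, replicates 2 and 5, were measured on the 2 dim arrays of that diet. Before normalization the sesamolin rats read 3157, 4553, 3770, 4598 and 4758, all below the lowest unscaled lignan-free value of 6402.

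Apoa4 fell by 1.35 ± 0.19 on the log2 scale with episesamin, a 2.56-fold lower level (adjusted p = 0.000184, limma), and by 0.79 ± 0.19 with sesamolin, 1.73-fold lower (adjusted p = 0.0194). With sesamin the difference was -0.31 ± 0.19, with a 95% interval from -0.72 to 0.09 and an adjusted p of 0.794, although the arrays did not overlap. Non-overlap of this kind, in the lower direction, held for 0.821% of all genes with sesamin, 3.04% with episesamin and 3.22% with sesamolin. The order of the diet means was lignan-free, sesamin, sesamolin and episesamin, and no step between neighbours in that order passed the test. Leaving out sesamolin replicate 1 or replicate 3 ended the call of Apoa4 with sesamolin, with differences of -0.65 and -0.70 and adjusted p of 0.0537 and 0.0545. Without the 6 dim arrays the sesamolin difference was -1.09 (adjusted p = 0.00213), and without the 4 arrays numbered 1 it was -0.67 (adjusted p = 0.0855).

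The other genes of the chromosome 8 cluster did not pass the test. Apoa5, which lies next to Apoa4, had lignan-free intensities of 5451, 5481, 5721, 3671 and 5069. It read 4433, 5130, 4664, 5783 and 4651 with sesamin. With episesamin it read 3542, 3516, 4446, 3228 and 3645, and with sesamolin 3753, 4546, 2510, 3457 and 4426. Apart from lignan-free replicate 4, all lignan-free rats were above all episesamin and sesamolin rats, and that 1 rat makes the groups overlap. The Apoa5 difference was -0.46 ± 0.15 with episesamin (95% interval -0.78 to -0.14, adjusted p = 0.0925) and -0.46 ± 0.15 with sesamolin (adjusted p = 0.0882), and neither passed. Without lignan-free replicate 4 both differences were -0.57 and passed, with adjusted p of 0.0389 and 0.0354. With sesamin the Apoa5 difference was -0.03 ± 0.15.

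Apoa1, the main HDL protein, and Apoc3, the lipase inhibitor, precede Apoa4 on that chromosome and did not pass the test with any lignan. Apoa1 intensities lay between 11049 and 12988 in lignan-free rats, 10594 and 11688 with sesamin, 10128 and 11530 with episesamin, and 10182 and 11982 with sesamolin. The Apoa1 differences were -0.11 ± 0.07, -0.14 ± 0.07 and -0.09 ± 0.07 with sesamin, episesamin and sesamolin, and the interval for episesamin ran from -0.30 to 0.01. Apoc3 ranged from 14246 to 14945 in lignan-free rats and from 13730 to 15216 over all lignan rats. The Apoc3 differences were 0.00, -0.02 and -0.04, each ± 0.06, and their intervals together ran from -0.16 to 0.12. Quantile normalization gives the top ranks of every array the same values, so this narrow range was in part fixed by the processing. Before normalization the Apoc3 means were 14974 lignan-free, 14675 with sesamin, 13692 with episesamin and 13839 with sesamolin. Those unscaled means also carry the brightness of the arrays. Apoc3 was the 3rd to 11th brightest probe set on each array and averaged 89.3% of the array's maximum, where an array can compress differences. Apoa1, Apoa2, Apoc1, Apoe and the main Apob probe set averaged 57.2% to 70% of the maximum, so the same limit applies to them in part, and how much it took from any difference was not tested.

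Apoa2, the second structural protein of HDL, was lowest with episesamin. Lignan-free rats had Apoa2 intensities of 10594, 10486, 9048, 12072 and 11338, and sesamin rats 10271, 10308, 8342, 11425 and 10271. Episesamin rats had 5783, 6161, 7445, 6825 and 7658. Sesamolin rats had 8291, 10271, 9714, 8988 and 9277. All 5 episesamin rats were below all 15 other rats, and the other 3 diets overlapped one another. Apoa2 fell by 0.66 ± 0.10 with episesamin (1.58-fold lower, adjusted p = 0.000613), while the differences with sesamin and sesamolin were -0.08 ± 0.10 (adjusted p = 0.929) and -0.20 ± 0.10 (95% interval -0.42 to 0.02, adjusted p = 0.297).

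Apom, a minor HDL protein made by hepatocytes, was lower with both episesamin and sesamolin. Lignan-free rats had Apom intensities of 4845, 4854, 4433, 4720 and 5021, with little spread. Episesamin rats had 2696, 3042, 3658, 3386 and 2947, and sesamolin rats 2500, 3702, 3658, 2911 and 3326. No rat of either diet reached the lowest lignan-free rat. Apom fell by 0.61 ± 0.11 with episesamin (1.52-fold, adjusted p = 0.00309) and by 0.58 ± 0.11 with sesamolin (a change of -33.2%, adjusted p = 0.00397). Sesamin rats lay in between, at 3761, 4025, 4096, 3449 and 4585, with only the last inside the lignan-free range, and their difference of -0.27 ± 0.11 (95% interval -0.50 to -0.03) had an adjusted p of 0.586.

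Apoc1, an exchangeable inhibitor of lipoprotein uptake, and Apoe, its receptor-binding neighbour, did not pass with any lignan. Apoc1 intensities ran from 10370 to 11688 in lignan-free rats and from 9957 to 12072 over the lignan rats. The Apoc1 differences were 0.04, -0.05 and 0.04, each ± 0.07, with sesamin, episesamin and sesamolin. Apoe ran from 10011 to 11530 in lignan-free rats and from 10271 to 12072 over the lignan rats, with differences of 0.02, 0.07 and 0.02, each ± 0.07. The intervals of both genes, over the 3 lignans, ended between -0.20 and 0.21. The second Apoe probe set did not exceed the filter on any array (raw intensities 0.59 to 11.7), and nothing is read from it.

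Apob, the structural protein of VLDL, differed from the lignan-free diet by nearly the same amount with episesamin and sesamolin, and passed only with the latter. Lignan-free rats had intensities on the main Apob probe set of 10762, 10061, 11338, 11530 and 10594, and sesamin rats 9805, 10011, 11182, 11601 and 11688. Episesamin rats had 8988, 8626, 8578, 8751 and 8988, and sesamolin rats 7341, 8478, 8626, 9484 and 10442. After normalization the episesamin rats were close together and below all lignan-free and all sesamin rats, whereas 1 sesamolin rat (replicate 5, a dim array) was inside the lignan-free range. Before normalization the episesamin rats were spread more widely, at 8938, 10077, 6951, 7513 and 8297. These were below the lowest unscaled lignan-free value of 10333 but overlapped the sesamin rats, whose lowest value was 8718. The Apob difference was -0.30 ± 0.09 with episesamin (adjusted p = 0.0519, not passing) and -0.30 ± 0.09 with sesamolin (adjusted p = 0.0498, passing), and 0.00 ± 0.09 with sesamin. These adjusted p sit at the threshold: the sesamolin call was lost under 10 of 17 other settings and when 18 of the 20 arrays were left out one at a time, with adjusted p up to 0.757 and 0.124. The episesamin difference of Apob passed in 5 of the 17 settings and in 2 of the 20 fits without 1 array. A second, dim Apob probe set (raw 12.5 to 58.6, above the filter on 18 arrays) gave 0.10, 0.00 and 0.05, each ± 0.32, intervals that include the differences of the main probe set.

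Mttp, the lipid-loading partner of Apob, did not pass in any comparison, and its estimates with episesamin and sesamolin were above 0. Lignan-free rats had Mttp intensities of 2128, 1948, 1818, 2448 and 2432, and sesamin rats 2069, 2139, 2178, 1893 and 2242. Episesamin rats had 2686, 2393, 1821, 2410 and 2931, and sesamolin rats 2588, 2492, 2667, 2573 and 2374. The sesamolin rats all exceeded the sesamin rats, and the rats of each lignan diet overlapped the lignan-free rats. The Mttp difference from lignan-free was -0.03 ± 0.11 with sesamin, 0.18 ± 0.11 with episesamin (adjusted p = 0.409) and 0.24 ± 0.11 with sesamolin (95% interval 0.01 to 0.48, adjusted p = 0.228). Without normalization between arrays the episesamin estimate was -0.04.

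An F test over the 4 diets passed for 4 of the 10 members, where 4.89% of all genes passed: Apoa4 (adjusted p = 0.000789), Apoa2 (0.00203), Apom (0.00537) and Apob (0.0372). Apoa5 had an adjusted p of 0.0882 and Mttp 0.319, and the other 4 members lay between 0.587 and 0.942. The F test calls of Apoa4, Apoa2 and Apom held in all 16 other settings and all 20 fits without 1 array. That of Apob was lost in 9 of the 16 settings (adjusted p up to 0.821) and in 14 of the 20 fits without 1 array (up to 0.0729), and Apoa5 passed in 3 settings and without lignan-free replicate 4.

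**Figure D2:**
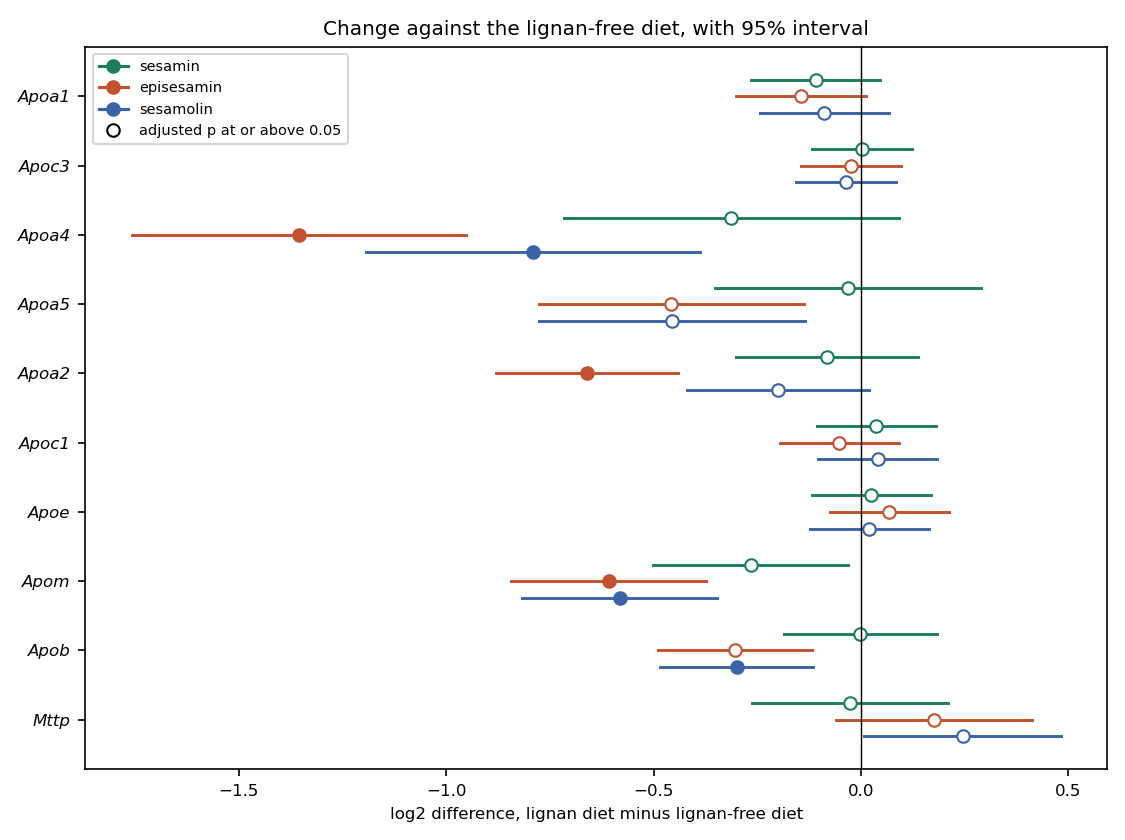
Log2 difference of each gene from the lignan-free diet for the 3 lignans (horizontal axis), with its 95% interval; filled points have an adjusted p below 0.05 in the limma fit (n = 5 rats per diet). The filled points are Apoa4 and Apom with episesamin and sesamolin, Apoa2 with episesamin and Apob with sesamolin, all below 0.

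The lignans were fed at 1 dose and for 1 time, so their 3 pairs can be set side by side. Between the epimers, 2 of 10 members differed: Apoa4 was lower with episesamin than with sesamin by -1.04 ± 0.19 (2.06-fold, adjusted p = 0.00807) and Apoa2 by -0.58 ± 0.10 (1.49-fold, adjusted p = 0.00659). Over all genes, 0.406% were called lower with episesamin than with sesamin, and 1.49% had arrays that did not overlap in this direction, as did Apoa4, Apoa2 and Apob. The Apoa2 call between the epimers was lost with no normalization, with the other diets left out of the model and without the arrays numbered 1 (adjusted p up to 0.156). The Apob, Apom and Apoa5 differences between the epimers were -0.30, -0.34 and -0.43, with intervals below 0 but adjusted p of 0.113, 0.174 and 0.225. For Apoa1, Apoc3, Apoc1 and Apoe the intervals between the epimers all lay between -0.23 and 0.19.

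Sesamolin and sesamin did not differ past the threshold in any member, where 1.81% of all genes did in limma's test. At an unadjusted p below 0.05 there were 5 members (Apoa4, Apoa5, Apob, Apom and Mttp) and 14.5% of all genes. The Apoa4 difference was -0.48 ± 0.19 (95% interval -0.88 to -0.08, adjusted p = 0.241), and without the dim arrays it was -0.76 with an adjusted p of 0.0452. Apob differed by -0.30 ± 0.09 (adjusted p = 0.0961), and passed without sesamolin replicate 5 (adjusted p = 0.0482). Mttp was 0.27 ± 0.11 higher with sesamolin in arrays that did not overlap, as 2.30% of genes were, with an adjusted p of 0.26.

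Sesamolin and episesamin gave 0 called members and 0% of all genes in limma's test, with 662 genes (5.72%) and 2 members at an unadjusted p below 0.05. These members were Apoa2, higher with sesamolin by 0.46 ± 0.10 (95% interval 0.24 to 0.68, adjusted p = 0.513) in arrays that did not overlap, as held for 0.406% of genes, and Apoa4, higher by 0.56 ± 0.19 (adjusted p = 0.823). For Apom, Apob and Apoa5 the differences were 0.03 ± 0.11, 0.00 ± 0.09 and 0.00 ± 0.15, with intervals of -0.21 to 0.26, -0.18 to 0.19 and -0.32 to 0.32.

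**Figure D3:**
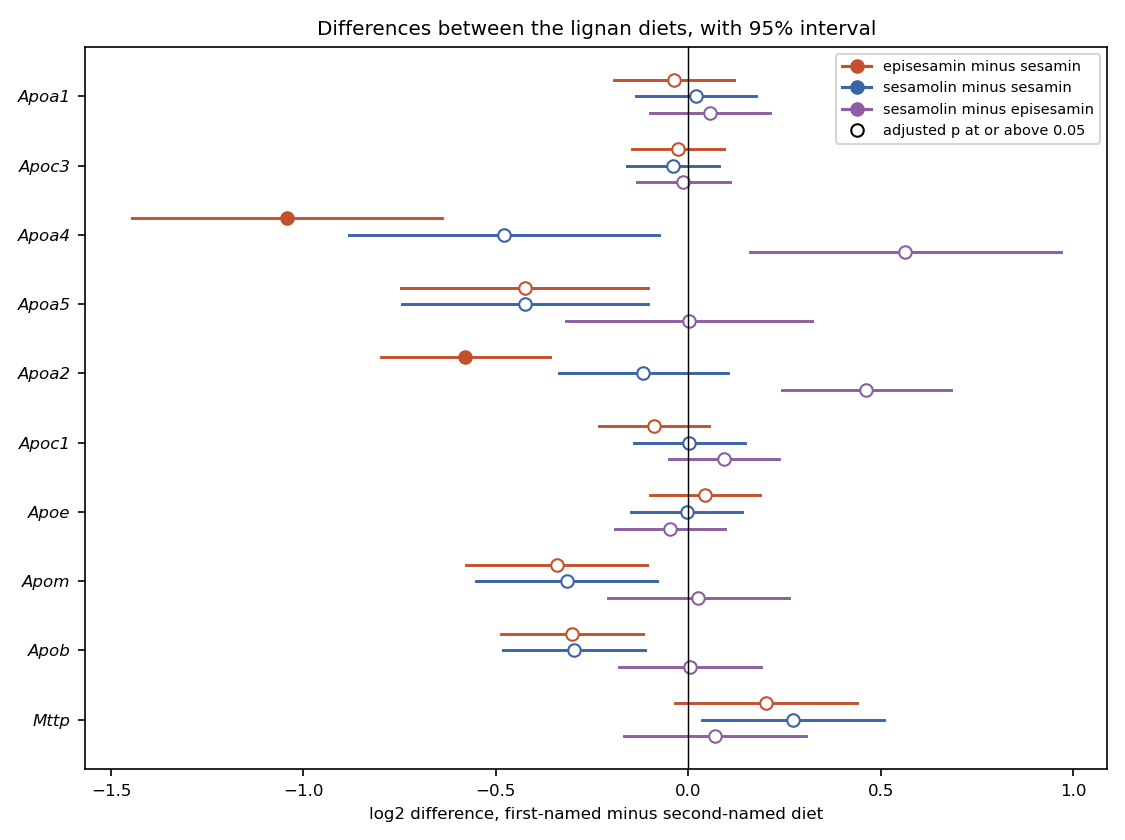
Log2 differences between the lignan diets for the 10 genes (horizontal axis), with 95% intervals; the first-named diet minus the second, filled where the adjusted p is below 0.05 (n = 5 rats per diet). Only Apoa4 and Apoa2, for episesamin minus sesamin, are filled.

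Ratios of 2 genes within an array do not depend on a scale factor of that array, though quantile normalization does alter them, and 6 pairs were compared over the 6 contrasts, 36 exact permutation tests in all. With quantile normalization none had an adjusted p below 0.05, the smallest being 0.0519, whereas 7 did without normalization, 7 with median scaling and 6 with cyclic loess. Leaving out episesamin replicate 3 gave 7 such ratios, sesamolin replicate 2 gave 12 and sesamolin replicate 1 or 5 gave 6. With quantile normalization 14 had an unadjusted p below 0.05, and 5 against 5 arrays cannot give an exact p below 0.00794. Adjusted exact p-values therefore move in coarse steps, and the number of passing ratios can jump when few ratios shift. The Apoa4 to Apoa1 ratio was lower by -1.21 with episesamin and by -0.70 with sesamolin than lignan-free, and by -1.01 with episesamin than with sesamin, each with non-overlapping arrays and an exact two-sided p of 0.00794. The Apoa2 to Apoa1 ratio differed by -0.52 with episesamin (exact p = 0.0159). The ratio of Mttp to Apob was higher by 0.48 with episesamin and 0.54 with sesamolin (exact p = 0.0159 each), with 1 array of each diet inside the lignan-free range, and by 0.57 with sesamolin than with sesamin (exact p = 0.00794). The Apoa5 to Apoc3 ratio differed by -0.43 (exact p = 0.0238) and -0.42 (exact p = 0.0476) with episesamin and sesamolin. No contrast of the Apoc3 to Apoa1 or the Apoc1 to Apoe ratio had an exact p below 0.05. Such a ratio shows unequal change of its 2 genes and not which of them changed.

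**Figure D4:**
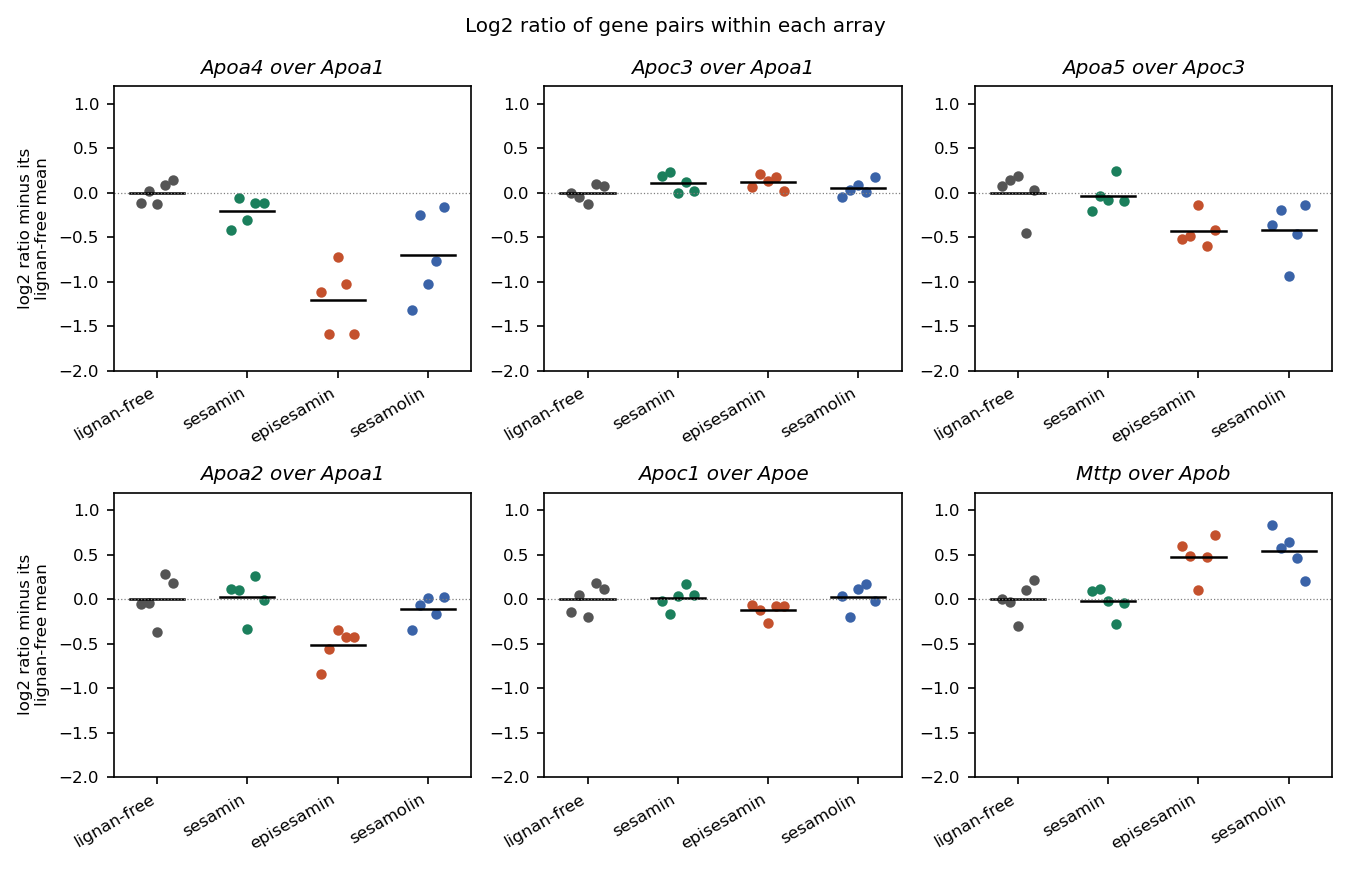
Log2 ratio of 6 gene pairs within each array, minus the lignan-free mean of that ratio (vertical axis); points are arrays, 5 per diet, and the bar is the mean. The Apoa4 to Apoa1 ratio lies 1.21 lower on average with episesamin, and the Mttp to Apob ratio 0.48 and 0.54 higher with episesamin and sesamolin.

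Other genes of lipoprotein biology came from 6 lists. Of 18 measured genes (22 listed) that act with Apob and Mttp in VLDL assembly and secretion, 2 rose and 2 fell with episesamin, and 3 rose and 1 fell with sesamolin. Over all genes 5.12% were called in either direction with episesamin and 6.24% with sesamolin, the background for each list count here. Dgat2, which makes triglyceride, fell by 0.43 ± 0.11 and 0.71 ± 0.11. Dgat1, the other enzyme of that step, rose by 0.44 ± 0.10 with sesamolin. Sar1b, the GTPase of the transport vesicles that carry these particles from the endoplasmic reticulum, rose by 0.37 ± 0.08 and 0.41 ± 0.08, and Smlr1, named after its values were seen, fell by 0.36 ± 0.09 with episesamin. Creb3l3, a hepatic transcription factor also counted among the regulators below, rose by 0.57 ± 0.11 and 0.46 ± 0.11.

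Among 11 of 16 listed further apolipoproteins and HDL-bound proteins, 1 fell with episesamin, where 2.21% of all genes fell. A single call among 11 genes is too few to set against that share. With sesamolin 3 fell, where 2.95% of all genes did. All of these were paraoxonases, antioxidant esterases of which Pon1 and Pon3 are carried on HDL. Pon1 fell by 0.24 ± 0.07 and 0.32 ± 0.07, Pon3 by 0.43 ± 0.09 and Pon2 by 0.29 ± 0.08, the latter both with sesamolin. Of 10 of 12 genes of HDL formation, hepatic lipase (Lipc) fell by 0.47 ± 0.11 with episesamin and was the only one to pass, while Lcat, which esterifies HDL cholesterol, had -0.18 ± 0.07 (adjusted p = 0.18). Of 10 of 13 receptors, Sorl1, a sorting receptor, rose by 1.26 ± 0.17 with episesamin and also passed with sesamolin (adjusted p = 0.00165), and Scarb2, a lysosomal membrane protein, rose by 0.35 ± 0.10 with episesamin. In the lipase list (9 of 10) Angptl4, an inhibitor of lipoprotein lipase, rose by 1.14 ± 0.27 with episesamin and also passed with sesamolin (adjusted p = 0.0346), and no other gene passed. Of 24 of 26 transcription factors known to act on apolipoprotein genes, 3 rose with episesamin, as did 2.91% of all genes (Creb3l3, Rxrg at 0.56 ± 0.14 and Nr1i3, a listed gene named after its values were seen, at 1.19 ± 0.31). With sesamolin 3 rose, against 3.28% of all genes (Creb3l3, Rxrg at 0.63 ± 0.14 and Rora at 0.48 ± 0.13) and Mlxipl, the carbohydrate-response factor, fell by 0.55 ± 0.12. No gene of these 6 lists passed limma's test with sesamin, where 10 of 80 distinct genes (12.5%) and 7.46% of all genes had an unadjusted p below 0.05. These counts varied with the scaling and with single arrays: the VLDL list's 8 calls were 5 with median scaling and 1 without normalization, the 4 paraoxonase calls were lost under both, and both Angptl4 calls were lost without lignan-free replicate 4. Without lignan-free replicate 1 or 2, or without sesamolin replicate 1, 2, 3 or 5, the lipase list had 1 call. Without lignan-free replicate 1, 2 or 4 the HDL-bound list had 2 calls in place of 4, and without lignan-free replicate 1, 4 or 5 the transcription factors had 3, 3 and 4 calls in place of 7. HDL formation had 2 calls in place of 1 without lignan-free replicate 3 or sesamin replicate 1. The median of a list lay between -0.26 and 0.10 with episesamin or sesamolin.

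Over the 20 arrays, Apoa4 correlated with Apom (r = 0.82), Apoa2 (r = 0.79), Apob (r = 0.76) and Apoa5 (r = 0.74), which includes the diet differences. With diet means removed these were 0.51, 0.24, 0.41 and 0.53. Mttp ran opposite to Apoa5, with r of -0.74 over the arrays and -0.58 within diets. The arrays of a diet share its feeding and each array its scale, so these values are descriptions. Of all genes tested, those most like Apoa4 were Mpc1, a mitochondrial pyruvate carrier subunit (r = 0.88), Tmem106b (0.84) and Ass1, a urea cycle enzyme (0.84). Apom was most like Ass1 (0.94), Pklr, the liver pyruvate kinase (0.93), and Nags (0.87). Apob was most like Tmem106b (0.90), F5, coagulation factor V (0.90), and Dhtkd1 (0.88), and Apoa2 like Hyal3 (0.81), Gulo (0.79) and Cpsf4 (0.79).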

How the data were processed

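The values the authors deposited are intensities, 1 linear value per probe set and array. Array means ranged from 159 to 271, so the arrays were treated as not on 1 scale; the summarising software, and whether any scaling was applied, are not given in sources used here. After quantile normalization, 5.85 (the 20th percentile) was added before log2. Probe sets needed 1 gene symbol in the platform annotation (20832 had 1, 436 several, 9831 none listed) and an intensity above 17.8 (40th percentile) on at least 5 arrays; a gene was represented by its brightest probe set on average, giving 11576 genes.

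In R 4.3.3, limma 3.58.1 fitted 4 diet means to 20 arrays, with 16 degrees of freedom left and 2.6 from the prior. The 6 contrasts were tested two-sided with Benjamini-Hochberg adjustment over all genes at 0.05. Within-array ratios were compared by exact permutation. The fit was tested on simulated data. Each array is 1 rat, so the spread between arrays of a diet holds rat differences together with those of labelling and measurement.

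The members and lists were chosen with earlier results of these data known. Named genes are all members, up to 4 genes per list with the lowest adjusted p against lignan-free, and the 3 genes most correlated with each called member. Alternatives were median scaling, no normalization, cyclic loess, an offset of 16 or none, removing the filter or raising it to the 60th percentile, averaging a gene's probe sets or testing each, robust and trended eBayes, weighting arrays, fitting only the groups compared, the replicate number as a block, brightness or the actin 3' to 5' ratio as covariate, leaving out the 6 arrays below 200 or the 4 numbered 1, and leaving out each array. Coordinates are from RefSeq GRCr8; the array annotation names no build used here.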

Additional observations from a re-analysis of the deposited data

Results flagged for a closer look

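In 40 sets of 5 rats (10 genes, 4 diets) the gap between the highest or lowest rat and its nearest neighbour, as a share of the range, exceeded the critical value of 0.71 in 3, and chance gives about 1 in 20. Apoa5 in lignan-free replicate 4 was the lowest of its diet, with a share of 0.727. Apoc3 in lignan-free replicate 1 was the highest of its diet, with a share of 0.736. Apoc3 in sesamolin replicate 2 was the highest of its diet, with a share of 0.728, on a dim array. Before normalization that array read 12266, the lowest Apoc3 value of its diet, so this flag depends on the scaling. With median scaling 4 such sets were found, without normalization 3 and with cyclic loess 1. These did not include any of the 3 sets named above, so each of those flags depends on the scaling. Apoa5 in lignan-free replicate 4 had shares of 0.657, 0.419 and 0.684 under these scalings, below the critical value.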

How the results depend on the processing

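Of 60 member and contrast values, 8 passed, and over 17 other settings and 20 fits without 1 array, 2220 values in all, 2168 kept their side of the threshold, 35 lost it, 17 gained it and 0 called values changed sign. Apoa4, Apoa2 and Apom with episesamin, Apom with sesamolin and Apoa4 between the epimers passed in all of these fits. Members called with sesamolin numbered 3 and were 1 with only the groups compared and 1 without the arrays numbered 1 (1 to 3 with 1 array left out). The Apob call among them was lost in 10 of the 17 settings and in 18 of the 20 fits without 1 array. Episesamin against sesamin gave 2 and 1 with no normalization, only the groups compared and without the arrays numbered 1. Sesamolin against sesamin gave 0, and 1 with trended and robust eBayes and without the dim arrays (0 to 1 with 1 array left out). Episesamin against lignan-free gave 3 (3 to 4). Ratios with an adjusted exact p below 0.05 numbered 0, and 7, 7 and 6 with median scaling, no normalization and cyclic loess (0 to 12 with 1 array left out). Outlying arrays numbered 3, and 1 with cyclic loess, Apoc1 in episesamin replicate 2, which was not among the 3. List calls against lignan-free, over the 3 lignans, were as follows. Other apolipoproteins gave 4, and 0 with median scaling, no normalization, only the groups compared and without the dim arrays, 2 with cyclic loess, mean of probe sets, brightness and without the arrays numbered 1, 8 with the 60th percentile filter, eBayes trended and robust, and array weights, and 9 with the replicate block (2 to 6 with 1 array left out). VLDL partners gave 8, and 5, 1, 3 and 5 with median scaling, no normalization, only the groups compared and without the dim arrays (6 to 10). HDL formation gave 1, and 0 with no normalization and without the dim arrays, 3 with the 60th percentile filter and array weights, and 2 with trended eBayes and the block (1 to 2). Receptors gave 3, and 1 with no normalization (2 to 3). The lipase list gave 2, and 4 with median scaling and 0 with no normalization, only the groups compared, brightness and without the arrays numbered 1 (0 to 2). Transcription factors gave 7, and 3, 1, 4, 3 and 3 with median scaling, no normalization, mean of probe sets, only the groups compared and without the arrays numbered 1 (3 to 9). All genes called numbered 50, 593, 722, 142, 210 and 0 in the 6 contrasts, and with no normalization 18, 262, 264, 12 and 23 in the first 5; the median of all genes then shifted by up to -0.25. With only the groups compared they were 31, 352, 372, 82 and 52. Without the arrays numbered 1 they were 30, 356, 373, 77 and 114, and without the dim arrays episesamin, sesamolin, sesamolin against sesamin and sesamolin against episesamin gave 290, 387, 105 and 1. The last gave 1 without the filter too. Median scaling gave 65 and 81 for episesamin and sesamolin against sesamin, and the actin covariate gave 78 for the former. The design names no pairing of rats by replicate number, so the numbers were used only as an alternative block. Over 30 same-number pairs r ran from -0.06 to 0.25, and 10 exceeded 0.1. These 10 include all 6 pairs of arrays numbered 1 (0.13 to 0.25), and 10 of 20 arrays were nearest to their own number. This is at most a hint from the data and not from the design, since no count expected without pairing was set beside it. The replicate block gave 4 members with episesamin, adding Apob (adjusted p = 0.0333), and called 697 and 858 genes with episesamin and sesamolin. The cause of these changes was not tested.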
